A study of Homo sapiens with 4 samples.

Results

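Polymerase occupancy was described at 52 protein-coding genes that drive the cell cycle and copy the genome, out of 20033 protein-coding genes in the GENCODE annotation of GRCh38. The genes were a given list, named by function and with no threshold on peaks. They fall into 8 roles, from origin licensing to the control of G1. For each gene, the peaks of RNA polymerase II (Pol II) were recorded within 1 kb of the transcription start site (TSS), in the gene body and within 2 kb past the gene end.

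The peaks came from chromatin immunoprecipitation with an antibody to Pol II, followed by sequencing (ChIP-seq), in SK-OV-3, an established human ovarian cancer cell line. One group carried shRRN3, a short hairpin RNA that silences RRN3, which helps RNA polymerase I to start transcription of ribosomal RNA genes, and the control group carried shLacZ, a hairpin against a bacterial gene that human cells lack. Each hairpin had 1 Pol II library and 1 input library, the latter not used here. Nothing in the labels gives a dose, a time or the medium for these libraries, and shRRN3 is named without the number of hairpin sequences behind it. With 1 library per hairpin there were no replicates, so each difference between the lists below compares 2 libraries and has no error and no test.

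The number of peaks was 4014 with shLacZ and 14363 with shRRN3. The median scores of the lists were 66.0 and 74.8, and the median widths were 304 bp and 432 bp. The lists hold no read counts, so the depth of the libraries is unknown from them, and the depth of a library and the amount of bound polymerase cannot be told apart in the length of its list. RRN3 itself had 0 peaks in its gene or within 2000 bp of it in either list, so the lists do not check the knockdown. Of 9 epithelial and ovarian carcinoma markers, PAX8 had a TSS peak in shLacZ, and KRT8, KRT18, EPCAM and PAX8 had one in shRRN3, where KRT8 and KRT18 share a single peak. The others, KRT7, KRT19, CDH1, ERBB2 and MSLN, had no TSS peak in either list. Of these, only KRT7 had a peak in another window, in its body in shRRN3. Of 9 blood, endothelial and fibroblast markers, 0 had a TSS peak in either list, and PECAM1 and VWF had a body peak in shRRN3.

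A cell licenses its replication origins in G1 by loading the MCM helicase with the origin recognition complex (ORC), CDC6 and CDT1. Cyclins and their kinases then fire the origins in S phase and drive the cell into mitosis, where the Aurora kinases, PLK1 and the spindle checkpoint act. Many of these genes are transcribed in waves: E2F factors, which RB1 holds back, serve the G1/S genes, while G2 and mitotic genes commonly carry CCAAT boxes and a cell cycle homology region (CHR) in their promoters.

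The promoters of 9 genes are shown first, since they hold words that were more frequent in these genes than in all promoters and come from starts with every combination of peaks. Each stretch is the 180 bases upstream of the RefSeq start on GRCh38.p14, read 5′ to 3′ on the strand of the gene, with capitals marking every E2F word, CHR word or CCAAT word on either strand. CDC6 (chr17:40287699-40287878, plus strand) and RRM2 (chr2:10122559-10122738, plus strand) lay wholly under a peak in both lists.
CDC6: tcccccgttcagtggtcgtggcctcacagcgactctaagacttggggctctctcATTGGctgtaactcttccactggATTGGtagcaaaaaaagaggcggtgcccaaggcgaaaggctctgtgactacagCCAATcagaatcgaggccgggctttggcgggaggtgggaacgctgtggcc
RRM2: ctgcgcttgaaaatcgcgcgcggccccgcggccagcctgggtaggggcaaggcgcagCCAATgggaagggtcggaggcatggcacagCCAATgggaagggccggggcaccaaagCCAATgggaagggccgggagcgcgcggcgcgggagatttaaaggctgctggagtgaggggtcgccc

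The MCM7 promoter (chr7:100101398-100101577, minus strand) had 122 of its 180 bases under a shLacZ peak and 0 under a shRRN3 peak. It ends in an E2F word.
MCM7: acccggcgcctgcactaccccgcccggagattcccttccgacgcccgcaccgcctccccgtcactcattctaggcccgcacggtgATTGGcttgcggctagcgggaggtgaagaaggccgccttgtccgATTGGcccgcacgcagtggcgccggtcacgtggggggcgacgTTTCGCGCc

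ORC3 (chr6:87589955-87590134, plus strand), RFC3 (chr13:33817969-33818148, plus strand), CCNB2 (chr15:59104966-59105145, plus strand) and CDC20 (chr1:43358801-43358980, plus strand) lay wholly under shRRN3 peaks and had 0 bases under shLacZ peaks. The former pair, which act in replication, hold an E2F word, and ORC3 holds a CCAAT word too. The latter pair, which act in mitosis, hold CHR and CCAAT words. Some other promoters so covered differ: those of GMNN, RFC2, RFC4, POLD1 and ORC1 hold no E2F word in their 180 bases. Those of BUB1 and CCNA2 hold CCAAT words but no CHR word.
ORC3: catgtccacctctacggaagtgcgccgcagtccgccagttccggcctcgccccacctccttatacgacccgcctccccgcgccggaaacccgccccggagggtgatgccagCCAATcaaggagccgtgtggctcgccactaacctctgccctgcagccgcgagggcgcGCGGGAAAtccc
RFC3: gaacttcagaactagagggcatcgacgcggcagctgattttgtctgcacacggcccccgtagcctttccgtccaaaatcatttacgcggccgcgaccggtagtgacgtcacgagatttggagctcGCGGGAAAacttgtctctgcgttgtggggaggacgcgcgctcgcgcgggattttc
CCNB2: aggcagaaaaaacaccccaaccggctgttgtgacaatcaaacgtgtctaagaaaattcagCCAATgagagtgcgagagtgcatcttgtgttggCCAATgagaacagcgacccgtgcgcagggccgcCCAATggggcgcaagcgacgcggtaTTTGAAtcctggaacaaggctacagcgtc
CDC20: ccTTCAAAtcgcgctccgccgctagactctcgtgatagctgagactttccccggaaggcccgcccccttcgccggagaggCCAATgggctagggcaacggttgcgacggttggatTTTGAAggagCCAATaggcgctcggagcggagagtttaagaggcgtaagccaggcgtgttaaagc

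MCM6 (chr2:135876444-135876623, minus strand) and PLK1 (chr16:23678709-23678888, plus strand) had 0 bases under a peak of either list, and their promoters hold the same kinds of word. In MCM6 the 4 E2F words overlap in pairs, since TTTGGCGC and the reverse complement of TTTCGCGC share bases there.
MCM6: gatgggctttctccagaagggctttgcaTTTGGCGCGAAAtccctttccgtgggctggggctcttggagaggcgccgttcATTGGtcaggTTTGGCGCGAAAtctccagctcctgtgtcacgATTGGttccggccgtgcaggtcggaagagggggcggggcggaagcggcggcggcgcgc
PLK1: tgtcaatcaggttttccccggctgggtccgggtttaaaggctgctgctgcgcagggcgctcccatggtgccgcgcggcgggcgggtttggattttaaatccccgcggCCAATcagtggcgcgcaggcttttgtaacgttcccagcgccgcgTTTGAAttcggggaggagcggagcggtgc

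Over the window from 250 bases before to 50 after the RefSeq start, 46 of the 52 genes could be searched on both strands, beside 15843 promoters of protein-coding genes. An E2F word (TTTCGCGC, TTTGGCGC, TTTCCCGC or TTTGCCGC) stood in 18 of the 46, which is 39.1%, and in 4.44% of all promoters. The CCAAT word stood in 67.4% of the genes and in 36.4% of all promoters, and the CHR word TTTGAA in 10.9% and 12.1%. The GC box GGGCGG stood in 78.3% and 58.5%, and TATAAA in 2.17% and 9.63%. The share of G and C bases hardly differed, with medians of 63.7% in the genes and 62.7% in all promoters. E2F, CCAAT and GC box words were thus more frequent in these genes than in all promoters, and TATAAA less so, with no test of the difference. These are matches of letters and not bound sites, and RefSeq places the start of RB1 far inside the gene as GENCODE draws it, so its window is not the upstream promoter. The RefSeq start of AURKB lies 350 bp downstream of its main start, and its window is inside the gene. Those of CCND3, PCNA and CDKN2A lie over 1 kb from the starts of their main transcripts.

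By role, an E2F word stood in 7 of 9 promoters of the MCM helicase and its activators, in 3 of 7 of origin licensing, in 4 of 10 of the clamp, its loader, the polymerases and primase, and in 0 of 4 of the mitotic kinases and checkpoint. In the last of these, CCAAT stood in all 4 and CHR in 2, those of CDC20 and PLK1. AURKB is among the 4, and its window lies inside the gene. The groups are small and were not tested. Of the 20 promoters of genes with a shRRN3 TSS peak, 30.0% held an E2F word, 70.0% CCAAT and 65.0% the GC box, and 3 held CHR. Of the 24 promoters of genes with no TSS peak in either list, 41.7% held an E2F word, 66.7% CCAAT and 91.7% the GC box, and 2 held CHR. Of the 6 promoters of genes with a shLacZ TSS peak, 3 held an E2F word, 4 CCAAT and 2 the GC box. Most of these words therefore stood in promoters of genes with and without a TSS peak. This split does not sort the promoters themselves, since TSS peaks were counted at the GENCODE start, which can lie far from the RefSeq start. CDK4 and CDKN1B had no TSS peak, yet 180 and 153 of their 180 bases upstream of the RefSeq start lay under shRRN3 peaks. RRM2 had no shLacZ TSS peak, yet its 180 bases lay wholly under a shLacZ peak.

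At the start, 7 of the 52 genes had a Pol II peak in shLacZ (13.5%, against 7.56% of all protein-coding genes) and 22 had one in shRRN3 (42.3%, against 23.7%). Both lists had a TSS peak at 5 genes (9.62%, against 6.41%). The shLacZ list alone had one at 2 genes (3.85%, against 1.15%), and the shRRN3 list alone at 17 genes (32.7%, against 17.3%). The remaining 28 genes had no TSS peak in either list. In each list the share in the cell cycle genes was above that of all protein-coding genes, and each group had a higher share in shRRN3 than in shLacZ. Another protein-coding start lay within 1 kb of the TSS at 15 of the genes (28.8%, against 17.4% of all), and a peak between such starts cannot be given to either gene. Among the 37 genes without such a neighbour, 3 had a TSS peak in shLacZ and 15 in shRRN3, with no share over like genes computed. The higher shLacZ share is therefore not shown apart from shared starts.

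**Figure D1:**
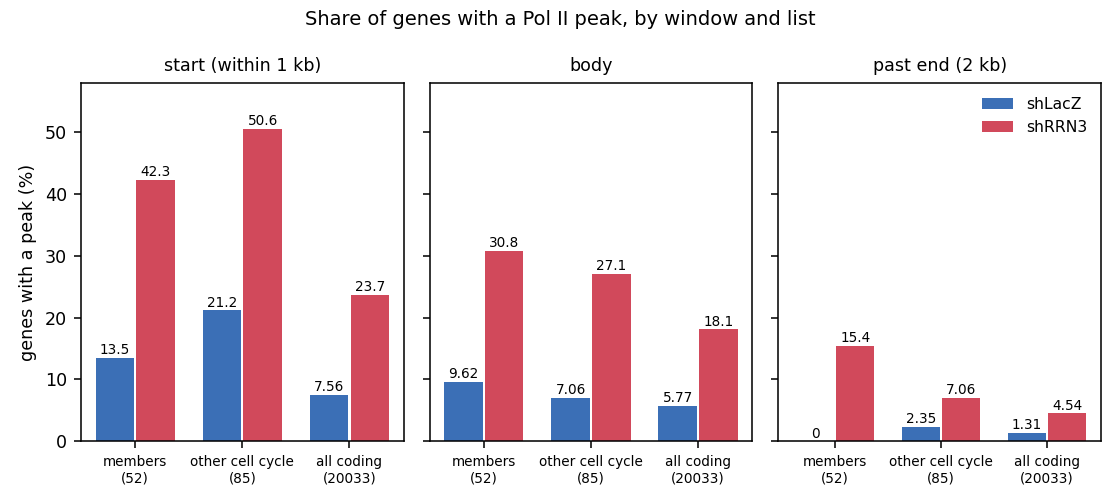
Share of genes with a Pol II peak (%, vertical axis from 0) within 1 kb of the start, in the body and within 2 kb past the end, for the 52 cell cycle and replication genes, 85 other cell cycle genes and all 20033 protein-coding genes. Blue bars are the shLacZ list and red bars the shRRN3 list, 1 library each; at the start the 52 genes stood at 13.5% and 42.3%, against 7.56% and 23.7% of all genes.

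In the body beyond 1 kb from the TSS, 5 of the genes had a peak in shLacZ (9.62%, against 5.77%) and 16 in shRRN3 (30.8%, against 18.1%). The shLacZ share did not hold against that of all genes under other settings, with 1.92% against 2.61% at scores of at least the shLacZ median and 3.85% against 3.98% at the bounds of main transcripts. With the shRRN3 list cut to the length of the shLacZ list, the order of the lists in the body turned, at 5 genes in shLacZ and 4 in shRRN3 (7.69%, against 6.0%). Past the end, 0 genes had a peak in shLacZ (against 1.31% of all protein-coding genes), and 8 had one in shRRN3 (15.4%, against 4.54%). Without peaks near the start of another gene, 5 of the 8 stayed, and those at CDT1, RFC4 and CCNA2 lay inside a neighbouring gene. Within 5 kb past the end, 3 genes had a peak in shLacZ. These 2 counts have no share over all genes here. Over the 3 windows, 12 genes had a peak in shLacZ (23.1%, against 13.1%), 34 in shRRN3 (65.4%, against 36.1%) and 10 in both (19.2%, against 11.7%). The genes with no peak in any window of either list were 16: ORC2, MCM2, MCM5, MCM6, MCM10, GINS2, GINS3, RFC5, POLA1, POLE, RRM1, CCND1, CCNE1, PLK1, E2F1 and CDKN2A. For CDKN2A, which codes for the CDK4 and CDK6 inhibitor p16, the nearest 100000 bp on either side also held 0 peaks in both lists.

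**Figure D2:**
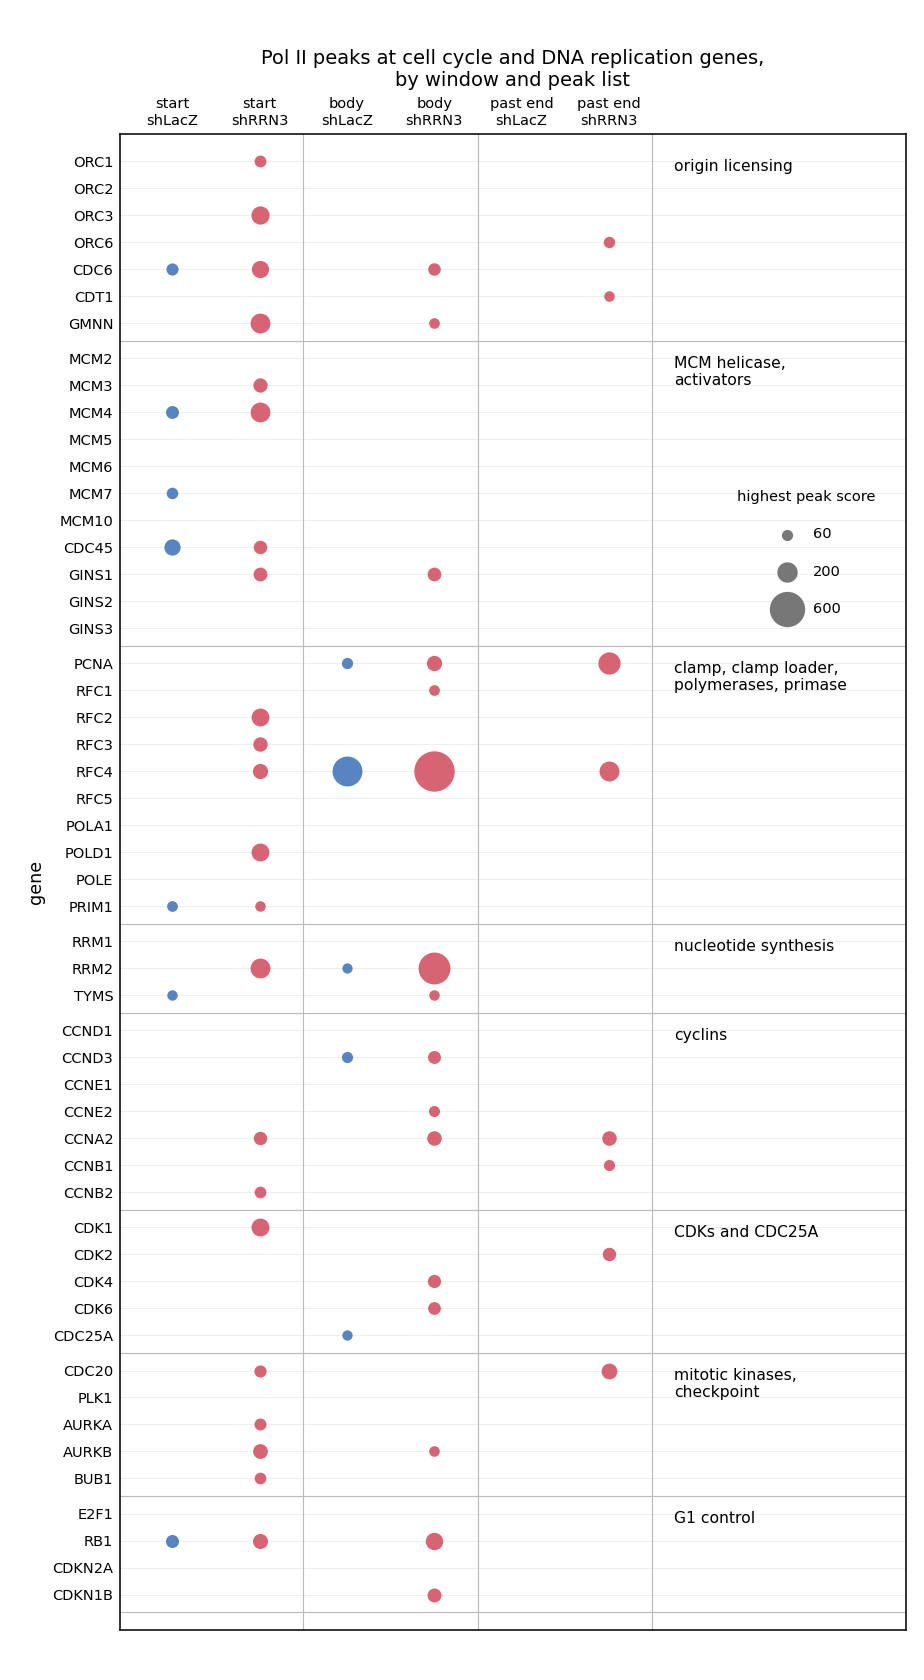
The 52 genes (rows, grouped by role) and their peaks at the start, in the body and past the end in the shLacZ list (blue) and the shRRN3 list (red); the area of a dot is proportional to the score of the highest peak, and an empty place means that no peak was listed. The largest dots are RFC4 in the body of both lists, at 429 and 784, and RRM2 in the body of shRRN3, at 487.

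Peak scores below are the deposited ones, in which a higher value marks a stronger peak within its list. A score depends on depth, so it ranks peaks of 1 list and is not a level to compare between lists. Positions are those of the peak midpoint in bp from the TSS, with negative values upstream. The TSS is the outer bound of the gene in GENCODE, and the main transcript is the MANE Select or canonical transcript, which may start elsewhere. The counts by role stand against TSS shares of 7.56% in shLacZ and 23.7% in shRRN3 over all protein-coding genes, and roles of 3 to 11 genes were not tested against these.

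Origin licensing opens the series of events, and here 1 of 7 genes had a TSS peak in shLacZ and 4 in shRRN3. CDC6, the loader of the MCM helicase, had a shLacZ peak with a score of 70.5 and a width of 654 bp at -178.5 bp. In shRRN3 its peak had a score of 142 and a width of 1177 bp at 84 bp, overlapped the shLacZ peak and was joined by an intronic peak of 75.6 at 2952.5 bp. No other gene start lay near them, so CDC6 was a gene with its own start peak in both lists.

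GMNN, which codes for geminin, the inhibitor of CDT1, had a shRRN3 TSS peak of 189 that was 1097 bp wide, and 3 small body peaks of 50.8 to 54.7. The nearest shLacZ midpoint lay 31266.5 bp from its TSS. ORC3 had a shRRN3 TSS peak of 160 with a width of 1228 bp, and ORC1, the largest ORC subunit, one of 66.9. Both peaks were shared with a neighbour transcribed the other way, RARS2 at 112.5 bp from the midpoint and PRPF38A at 91 bp. CDT1 and ORC6 had shRRN3 peaks only past their ends, of 53.2 and 62.7, the former inside APRT. ORC2 had no peak.

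The MCM proteins form the ring-shaped replicative helicase, which CDC45 and the GINS proteins activate. Of these 11 genes, 3 had a TSS peak in shLacZ and 4 in shRRN3, and 2 were in both. MCM4 had a shLacZ peak of 80.2 with a width of 963 bp, which overlapped 2 shRRN3 peaks of 138 and 189 at 25 bp and 601 bp. The start of PRKDC, a DNA repair kinase on the other strand, lay between 32 bp and 608 bp from these midpoints. From the start of the main MCM4 transcript, the shRRN3 midpoints lay at -731 bp and -155 bp, and the shLacZ midpoint at -451 bp. The lists cannot divide these peaks between MCM4 and PRKDC.

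CDC45 was the member with the highest-scoring TSS peak in shLacZ, at 127, which placed it above 87.3% of the peaks in that list. Its midpoint at -232 bp lay 23 bp from the start of UFD1 on the other strand. In shRRN3 an overlapping peak had a score of 87.3, and a peak of 67.9 at 554.5 bp, inside CDC45, overlapped no shLacZ peak. The stronger peak in each list therefore lay at the start of UFD1, and the peak inside CDC45 was found in shRRN3 alone.

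MCM7 had a TSS peak in shLacZ alone, with a score of 64.2 and a width of 422 bp, 117.5 bp from the start of AP4M1 on the other strand. The nearest shRRN3 midpoint was 25505.5 bp away from this peak. MCM3 had a TSS peak in shRRN3 alone, of 97.8 at 114.5 bp, with no other gene start nearby. GINS1 had a shRRN3 peak of 91.6 at its outermost TSS, beside ABHD12, and another of 90.5 that lay -7 bp from the start of its main transcript, 16658 bp into the annotated gene. MCM2, MCM5, MCM6, MCM10, GINS2 and GINS3 had no peak, so the 6 genes of the MCM ring (MCM2 to MCM7) had start peaks at MCM3, MCM4 and MCM7 only, in either list.

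At the fork, PCNA is the sliding clamp, the RFC proteins load it, PRIM1 is the catalytic subunit of primase, and POLA1, POLD1 and POLE are the catalytic subunits of the replicative polymerases. Of these 10 genes, PRIM1 had a TSS peak in shLacZ and 5 genes had one in shRRN3. PRIM1 peaks were weak in both lists, with 55.3 in shLacZ and 53.6 in shRRN3, and overlapped. The start of HSD17B6 lay 40 bp and 92 bp from their midpoints. POLD1 had 154 and RFC2 had 153 in shRRN3, both at starts with no other gene start near, and neither had a shLacZ peak. RFC3 had a shRRN3 peak of 100.0 at 5.5 bp, the peak nearest to its own TSS after that of AURKA at -4.5 bp, and its nearest shLacZ midpoint was 2163382 bp away from the peak. RFC4 had a shRRN3 TSS peak of 111.

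PCNA had no peak at its outermost TSS, but its body peaks lay at the start of its main transcript. The shLacZ peak there had a score of 61.0 at 104 bp from that start and overlapped a shRRN3 peak of 112 at -83.5 bp, which a peak of 64.1 followed at 630 bp. Past the end of PCNA, shRRN3 had a peak of 237 with a width of 1417 bp, and its midpoint lay 62 bp from the start of TMEM230, the next gene on the same strand. A small shRRN3 peak of 54.2 stood 634 bp past the end.

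RFC4 held the highest-scoring body peak of the 52 genes in each list. In shLacZ it had a score of 429 and a width of 984 bp, above 98.3% of the peaks of that list, and its midpoint stood at -922.5 bp from the end of RFC4, inside the gene. In shRRN3 it had 784 and 1679 bp, above 99.7% of the peaks, and stood at -698 bp from the end. RFC4 and EIF4A2, a translation initiation factor gene on the other strand, converge and end within each other's bounds, and these midpoints lay 905.5 bp and 681 bp past the end of EIF4A2. The 2 shRRN3 peaks past the end of RFC4, of 191 and 122, lay inside EIF4A2. The weaker of them overlapped 2 shLacZ peaks of 52.05 and 50.72, whose midpoints fell beyond 2 kb from the end. The signal at the end of RFC4 cannot be divided between the 2 genes from these lists, and in each list this peak had the highest score at any of the 52 genes. RFC1 had 1 weak intronic peak of 55.5 in shRRN3. RFC5, POLA1 and POLE had no peak.

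Among the genes of nucleotide synthesis, RRM2, the small subunit of ribonucleotide reductase, had peaks at 2 starts in shRRN3. At the outermost TSS the shRRN3 peak had a score of 190, the highest TSS score of the 52 genes, and a width of 853 bp, with no shLacZ peak over it. At the start of the main transcript, 2041 bp downstream, shRRN3 had 170 and shLacZ had 50.5, close to the lowest score of that list, and the peaks overlapped. A shRRN3 peak of 487 with a width of 2460 bp, the widest at any of the genes, stood 5464.5 bp past the end of the main transcript, within the longer annotated span of RRM2, and overlapped no shLacZ peak. A shLacZ peak of 50.1, 152 bp wide, lay 2323 bp from its midpoint. RRM2 thus had its strongest shRRN3 peak beyond its main transcript.

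TYMS, thymidylate synthase and the target of 5-fluorouracil, had a TSS peak in shLacZ alone, of 52.2, above 12.6% of the peaks in that list. Its midpoint at 708.5 bp lay 11.5 bp from the start of the antisense RNA TYMSOS, and shRRN3 had a weak intronic peak of 53.0 at 9057.5 bp. RRM1, the large subunit of ribonucleotide reductase, had no peak in either list.

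**Figure D3:**
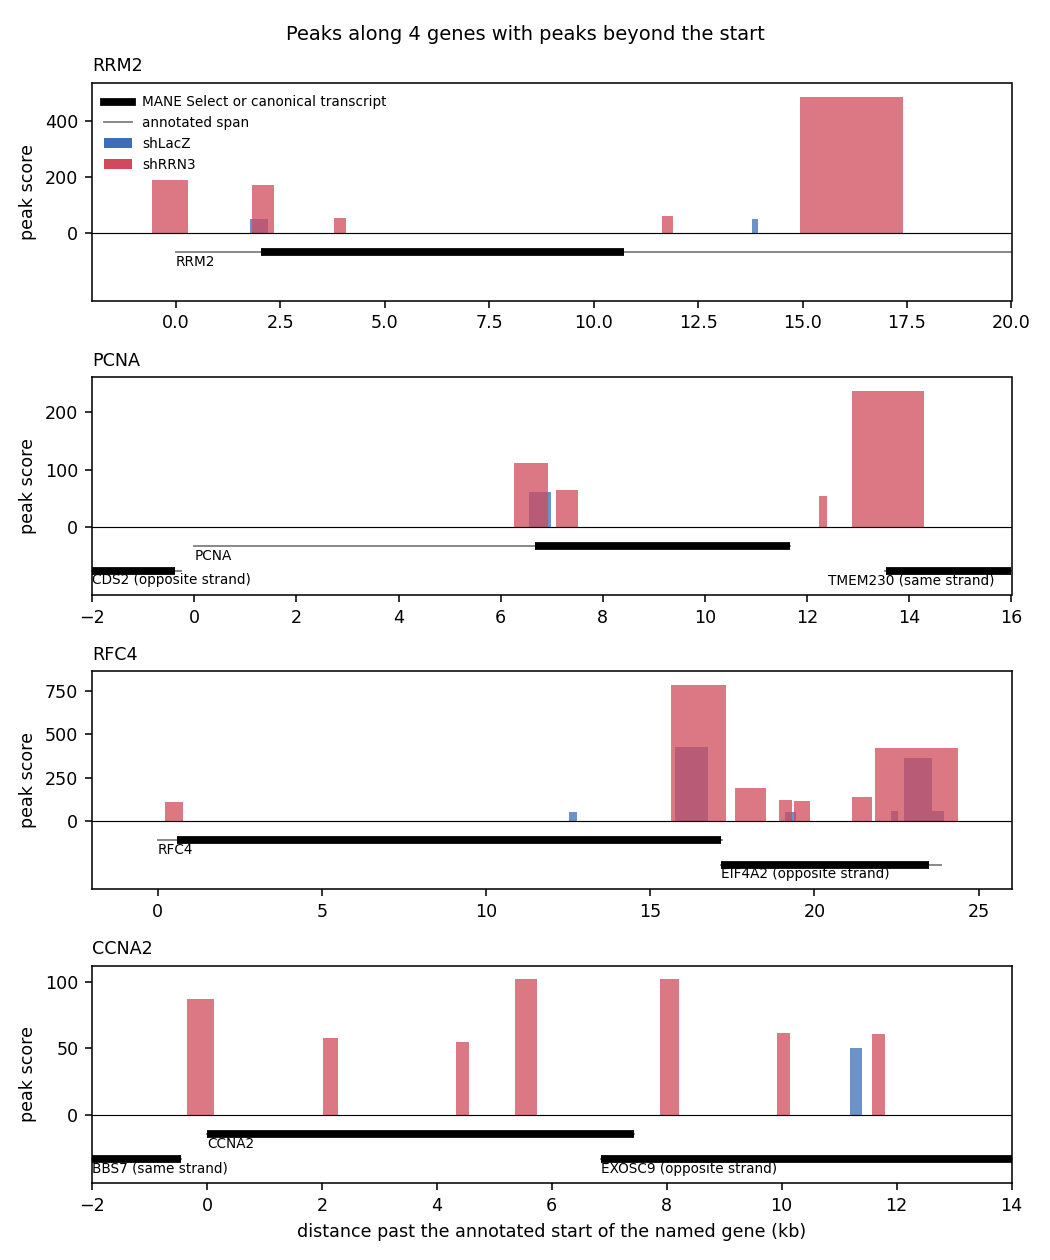
Peaks along RRM2, PCNA, RFC4 and CCNA2, with the distance past the annotated start (kb) across and the deposited peak score (from 0) up; the width of each block is that of the peak, with shLacZ in blue and shRRN3 in red, and black bars mark main transcripts while thin grey lines mark annotated spans. The tallest RFC4 blocks, at 429 and 784, stand where RFC4 and EIF4A2 converge, and the tallest RRM2 block, at 487, stands past the main transcript.

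Cyclins bind and activate the cyclin-dependent kinases (CDKs), and 0 of 7 cyclin genes had a TSS peak in shLacZ and 2 in shRRN3 (28.6%, near the 23.7% of all genes). CCNA2, the cyclin of S phase and G2, had a shRRN3 peak of 86.8 at -109 bp, 3 body peaks of 54.5 to 102 and a peak of 102 located 613.5 bp past its end, inside EXOSC9. It had a peak in each of the 3 windows in shRRN3 and in none of them in shLacZ. CCNB2, a mitotic cyclin, had a broad shRRN3 peak of 66.0 with a width of 990 bp, while CCNB1 had only a peak of 59.8 past its end, at 1659.5 bp, in no other gene.

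CCND3, a cyclin of G1, had a body peak in both lists, but these did not overlap. The shLacZ peak of 60.02 lay -350 bp from the start of the main transcript, and the shRRN3 peak of 81.0 lay 24897.5 bp from it. CCNE2 had a shRRN3 peak of 59.1 at 38.5 bp from its main start, which is beside the start of NDUFAF6. CCND1 and CCNE1 had no peak in either list, so none of these D and E cyclin genes had a peak at the outermost TSS.

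Of 5 genes for CDKs and their activating phosphatase CDC25A, 0 had a TSS peak in shLacZ and 1 in shRRN3, a share no higher than that of all genes. That gene was CDK1, the kinase of mitotic entry, with a score of 155 and a width of 727 bp at 295 bp, and the nearest shLacZ midpoint was 131713 bp away from this peak. CDK4 had a shRRN3 peak of 83.6 at 143.5 bp from its main start, and CDK6 had 3 intronic shRRN3 peaks of 59.5 to 78.9. The shRRN3 peak of 87.0 past the end of CDK2 lay 86 bp from the start of RAB5B. CDC25A had 1 weak shLacZ peak of 51.2 in an intron and no shRRN3 peak. Over the 3 windows, 4 of these 5 genes had a peak in shRRN3 alone (against 24.4% of all protein-coding genes). CDC25A had one in shLacZ alone (against 1.42%). These shares rest on 5 genes and were not tested.

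Among the 8 roles, the mitotic genes showed the widest gap between the lists at the TSS, with a TSS peak at 0 of 5 genes in shLacZ and 4 in shRRN3. That order held for the full lists only, since with the shRRN3 list cut to 3920 peaks AURKB alone of the 5 stayed, while 3 of 7 licensing genes did. The mitotic genes had no shLacZ peak in any window, while 13.1% of all protein-coding genes had one. AURKB, a kinase of the chromosomal passenger complex, had a shRRN3 peak of 105 at 59.5 bp and a weak one of 54.1 near its end. CDC20, an activator of the anaphase-promoting complex, had a peak of 71.2 that was 1475 bp wide, the widest TSS peak of the 52 genes, and covered the start of the divergent RNA CDC20-DT. CDC20 also had a peak of 120 located 562 bp past its end, inside ELOVL1. AURKA, the centrosomal Aurora kinase, had 69.2 at a start shared with CSTF1, 29.5 bp from the midpoint. BUB1, a spindle checkpoint kinase, had 65.6 and 58.3. PLK1 had no peak. The group holds 5 genes, so its share rests on few of them.

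In the control of G1, RB1 had a TSS peak in both lists, of 81.7 in shLacZ and 109 in shRRN3. The midpoints, at -138 bp and -142 bp, lay 4 bp apart, the closest pair among the genes with a TSS peak in both lists, and the start of the divergent RNA RB1-DT lay 114 bp from the shLacZ midpoint. RB1 also had a shRRN3 body peak of 146 with a width of 1434 bp, beyond its main transcript and at starts of other genes at the RCBTB2 locus, and a weak one of 59.2. CDKN1B, the CDK inhibitor p27, had 3 shRRN3 peaks of 50.8 to 93.7 in its long annotated span. The highest lay 569.5 bp from the start of GPR19, and that of 50.8 lay -148.5 bp from the main CDKN1B start. E2F1 and CDKN2A had no peak.

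**Figure D4:**
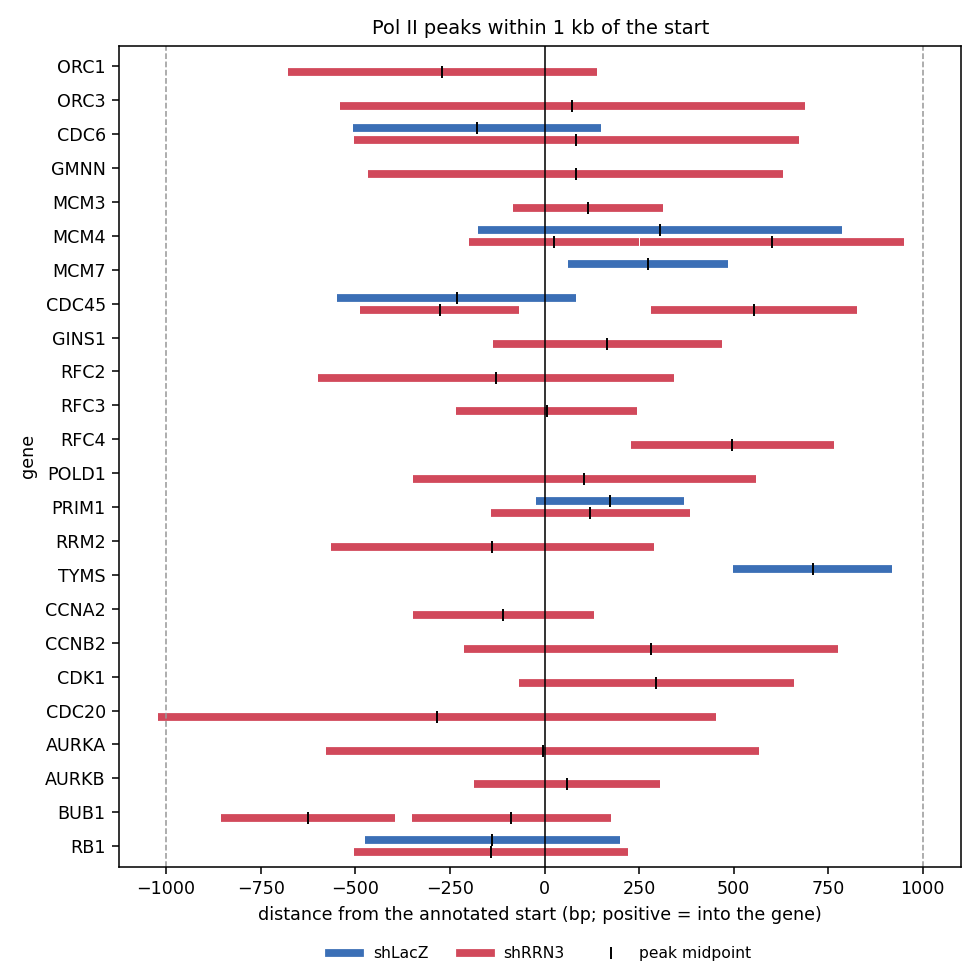
Extent of every peak with its midpoint within 1 kb of the TSS, for the 24 genes that had one; the horizontal axis is the distance from the TSS in bp (positive into the gene), blue bars are shLacZ, red bars shRRN3 and black ticks peak midpoints. At CDC6, MCM4, CDC45, PRIM1 and RB1 blue and red bars overlap, and MCM7 and TYMS have a blue bar only.

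The TSS peaks of these genes ranked near the middle of the TSS peaks of all genes in shLacZ and somewhat above it in shRRN3. The highest TSS score per gene had a median of 70.5 in the 7 shLacZ genes, against 70.6 over the 1514 protein-coding genes with a TSS peak, and a median of 103 in the 22 shRRN3 genes, against 90.9 over 4753 genes. The median width was 633 bp against 489 bp in shLacZ and 725 bp against 650 bp in shRRN3. Midpoints lay downstream of the TSS at 57.1% of the shLacZ genes and 59.1% of the shRRN3 genes, against 58.5% and 51.9%. Since only genes with a peak enter these medians, they describe the peaks and not the 52 genes.

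Of the 7 distinct shLacZ peaks at the starts, 5 overlapped a shRRN3 peak, and of the 25 distinct shRRN3 peaks, 6 overlapped a shLacZ peak. In the body the overlaps were 3 of 7 and 3 of 29, and past the end 1 of 10 shRRN3 peaks. Counted by genes, whether or not the peaks overlapped, 5 of the 7 with a shLacZ TSS peak also had one in shRRN3, against 1284 of 1514 over all protein-coding genes. Of the 22 with a shRRN3 TSS peak, 17 had none in shLacZ, against 3469 of 4753 over all. In the body, 4 of the 5 genes with a shLacZ peak also had a shRRN3 peak, against 937 of 1155. No share of overlapping peaks over all genes is given here, so the overlaps of peaks are not shown to differ from those at other genes.

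With only the 3920 highest shRRN3 scores kept, the number of shLacZ peaks on the primary chromosomes, 11 of the 52 genes had a TSS peak in shRRN3 (21.2%, against 9.74% of all protein-coding genes) beside 7 in shLacZ. The genes that stayed were CDC6, GMNN, ORC3, MCM4, RFC2, RFC4, POLD1, RRM2, CDK1, AURKB and RB1. At the TSS the difference between the lists in count was thus smaller at equal list length, and the share of the cell cycle genes was above that of all genes there too, whereas in the body the count was lower in shRRN3, as given above.

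At the starts of main transcripts in place of the outer bounds, 10 of the genes had a peak in shLacZ (19.2%, against 8.18%) and 26 of the 52 in shRRN3 (against 25.4%), with 7 in both (13.5%, against 6.96%). The main start lay over 1 kb from the outer bound at 12 of the 52 genes, PCNA, RRM2 and CDK4 among them.

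The 85 other genes of replication, the cell cycle and mitosis, taken from a list that shares no gene with the 52, gave counts of the same order. Of these, 18 had a TSS peak in shLacZ (21.2%, against 7.56% of all) and 43 in shRRN3 (50.6%, against 23.7%), with 17 in both. In the body 6 (7.06%, against 5.77% of all) and 23 (27.1%, against 18.1%) had a peak, and past the end 2 (2.35%, against 1.31%) and 6 (7.06%, against 4.54%), CKS2 and CDC25B being the 2 in shLacZ. The shLacZ midpoints past these ends lay 54 bp from the start of SECISBP2 and 666 bp from that of the non-coding RNA LINC01730. The highest shLacZ TSS score was that of CDC25C, a phosphatase that activates CDK1, with 269 in shLacZ and 409 in shRRN3. These midpoints lay at -6262.5 bp and -6304.5 bp from the start of the main CDC25C transcript, inside FAM53C on the other strand. CKS2, a small CDK subunit, followed with 112 in shLacZ, and LIN54, a subunit of the DREAM and MuvB complexes that binds the CHR, with 104. Among the others, with scores between 50.19 and 83.98, were ORC5, TICRR, POLA2, POLE3, POLE4 and TIMELESS of replication, DUT of nucleotide synthesis, PKMYT1, MAD2L1, CHEK1, CENPE and NDC80 of checkpoints and mitosis, and LIN9 and LIN37 of MuvB. CHEK1, the checkpoint kinase, was the 1 gene of them with no shRRN3 TSS peak.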

How the data were processed

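Chromatin from SK-OV-3 cells with shLacZ or shRRN3 was precipitated by the authors with a Pol II antibody and sequenced on a BGISEQ instrument, and 1 peak list per Pol II library was deposited. A list holds, for each peak, its coordinates, a name and a score, and the deposited score was taken to grow with the strength of the peak as the peak caller computed it, which is an assumption. Peaks were called separately in each library. The caller's version and threshold, the aligner, the treatment of duplicate reads and the use of the inputs are not given in the sources used here. The submitters' processing notes name the build hg38. The lists hold no counts, so depth and its precision are unknown from them.

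Gene bounds were those of GENCODE release 44, in which 20033 of 62663 genes are protein-coding. A peak was placed by its midpoint: within 1 kb of the TSS, in the body beyond 1 kb, or within 2 kb past the end. Peaks overlapped when they shared at least 1 base. Counts were set beside those of all protein-coding genes, and no test was run between the hairpins, since each had 1 library. Planted peaks in simulated lists were all returned to their genes. Promoters came from RefSeq (GRCh38.p14), where MCM4, MCM5, CCND1, CCNE2, CDK2 and AURKA were not matched. Python 3.11.15, pandas 2.3.3 and numpy 2.4.6 were used.

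The 52 genes, the other lists and the settings were chosen with earlier results of these data known. The rule for printing values took every gene with a shLacZ peak, the 10 with the highest shRRN3 TSS scores and, by name, the genes with no peak; the values of the remaining genes were added after they were seen, so that every gene is accounted for. Alternatives covered the windows, the start used, the score minimum, the length of the shRRN3 list, neighbouring starts and the overlap. Of the 85 other cell cycle genes, those with a shLacZ TSS peak were named, 1 of which is not reported here.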

Additional observations from a re-analysis of the deposited data

How the results depend on the processing

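Of 67 values recomputed under the alternatives, 45 stayed within 1.5 times the reported count and 22 did not. With scores of at least the shLacZ median of 66.0, TSS genes numbered 4 in shLacZ (7.69%, against 4.37% of all genes) and 0 in shLacZ alone (against 0.719%). Body genes in shLacZ then numbered 1 (1.92%, against 2.61%), and genes with a shRRN3 peak past the end 5 (9.62%, against 3.12%). With the shRRN3 list reduced to 3920 peaks, TSS genes numbered 11 in shRRN3 (21.2%, against 9.74% of all genes). Of these, 3 were shared with shLacZ (5.77%, against 4.24%) and 8 were not (15.4%, against 5.5%). A further 4 had a peak with shLacZ only (7.69%, against 3.32%). The shRRN3 genes then numbered 4 in the body (7.69%, against 6.0%) and 3 past the end (5.77%, against 1.83%). Among the 37 genes without another protein-coding TSS within 1 kb, TSS genes numbered 3 in shLacZ, 2 in both lists and 1 in shLacZ alone (TYMS), beside 15 in shRRN3. With a window of 0.5 kb, shLacZ alone held 1 (MCM7). Without body peaks within 1 kb of another protein-coding start or of a protein-coding transcript start of the same gene, shLacZ body genes numbered 3. The genes left out were PCNA and CCND3, with peaks at 104 bp and -350 bp from their own main starts. The bounds of the main transcript, an alternative chosen after seeing the data, left 2 body genes in shLacZ (3.85%, against 3.98%) and 10 in shRRN3 (19.2%, against 13.7%). Past the end, a window of 1 kb left 4 shRRN3 genes, one of 5 kb gave 3 in shLacZ and 13 in shRRN3, counting any base of a peak gave 2 in shLacZ, and leaving out peaks near other starts left 5 in shRRN3. The cause was not tested in any of these. Counts printed without a share over all genes have no such comparison here. No paired analysis was possible because each hairpin had 1 library. The depth of the libraries is unknown, and a gene without a listed peak is not shown to lack polymerase.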
